A study of Mus musculus with 12 samples.

Results

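The Kruppel-like factor (Klf) genes were examined for binding of Rev-Erbα in brown adipose tissue of mice. All peaks whose annotated gene was Klf2, Klf3, Klf4, Klf5, Klf6, Klf7, Klf9, Klf11, Klf13 or Klf15 were taken, by gene name alone. These were 41 of 11227 sites in the 4 °C list and 8 of 2183 in the 29 °C list, or 43 distinct sites. Of the 10 genes, 8 had a site at 4 °C and 5 had one at 29 °C. Over the whole lists 5451 genes had a site at 4 °C and 1629 at 29 °C. The share of all genes with a site was not computed, so these counts show neither an excess nor a lack. Klf5 and Klf13 had no site in either list, and since the files give values in peak windows only, they have no value.

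The study used chromatin immunoprecipitation and sequencing (ChIP-seq) with anti-HA beads on brown adipose tissue, the heat-producing fat. HA-RevErba mice, which carry Rev-Erbα with an HA tag, gave 4 libraries after 1 week at 4 °C (chronic cold) and 4 after 1 week at 29 °C (thermoneutrality). Wild-type (WT) mice, which carry no tag and show the background of the beads, gave 2 libraries at each temperature. All mice were of the C57BL/6 strain. The labels used here do not say how the tag was introduced, how many animals stand behind a library, or their age. The HA-RevErbα libraries held 28.7 to 37.3 M (mega) aligned reads at 4 °C and 27.0 to 36.9 M at 29 °C, and the WT libraries held 29.2 and 32.6 M at 4 °C and 27.4 and 36.1 M at 29 °C. The deposited peak values come from pools of all libraries of a group, so no value between temperatures has a replicate check and no test was possible. The pools held 63.8 M reads (HA-RevErbα 4 °C), 60.8 M (HA-RevErbα 29 °C), 27.1 M (WT 4 °C) and 25.1 M (WT 29 °C), as recovered from the deposited values. These are 49.8%, 49.2%, 43.9% and 39.5% of the aligned reads of their libraries, and the sources used here do not give the reason.

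KLF proteins are transcription factors with zinc fingers that bind GC-rich and CACCC sequences, and with the SP proteins they form a single family. Several of them act in fat cell formation. KLF4 activates Cebpb early in adipogenesis, KLF5, KLF9 and KLF15 promote the expression of Pparg or of fat cell genes, and KLF6 represses the preadipocyte gene Dlk1. KLF2, KLF3 and KLF7 hold back adipogenesis. Rev-Erbα is a nuclear receptor and a repressor of the circadian clock, which binds the core sequence AGGTCA preceded by an A/T-rich stretch.

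A single Klf site lay in a promoter by the authors' annotation, that of Klf11, centred at -0.203 kb, where distances are from the transcription start site (TSS) and negative upstream. Promoter sequences of 9 of the 10 genes, from 250 bases before to 50 bases after the start, were found in the RefSeq table of build GRCm38.p6. They are shown for Klf11, because a peak lies there, for Klf4, the gene with most sites, and for Klf15, which had sites on the gene side of its start in both lists. Each is printed 5′ to 3′ on the strand of the gene, and capitals mark the E-box CACGTG, the element that the clock activators CLOCK and BMAL1 bind.
Klf11 (chromosome 12, 24651121 to 24651420, + strand): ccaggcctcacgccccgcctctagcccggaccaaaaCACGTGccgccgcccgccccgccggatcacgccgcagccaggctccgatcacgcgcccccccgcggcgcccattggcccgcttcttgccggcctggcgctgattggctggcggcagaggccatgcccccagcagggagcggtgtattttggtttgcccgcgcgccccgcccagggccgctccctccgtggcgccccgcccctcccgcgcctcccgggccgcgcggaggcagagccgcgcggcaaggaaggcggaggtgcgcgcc
Klf4 (chromosome 4, 55532426 to 55532725, - strand): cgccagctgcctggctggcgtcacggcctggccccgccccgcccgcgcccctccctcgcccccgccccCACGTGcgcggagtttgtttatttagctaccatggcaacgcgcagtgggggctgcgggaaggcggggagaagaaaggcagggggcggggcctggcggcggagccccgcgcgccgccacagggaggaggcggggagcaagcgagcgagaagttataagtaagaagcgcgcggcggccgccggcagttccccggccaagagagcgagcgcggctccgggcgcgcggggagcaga
Klf15 (chromosome 6, 90462326 to 90462625, + strand): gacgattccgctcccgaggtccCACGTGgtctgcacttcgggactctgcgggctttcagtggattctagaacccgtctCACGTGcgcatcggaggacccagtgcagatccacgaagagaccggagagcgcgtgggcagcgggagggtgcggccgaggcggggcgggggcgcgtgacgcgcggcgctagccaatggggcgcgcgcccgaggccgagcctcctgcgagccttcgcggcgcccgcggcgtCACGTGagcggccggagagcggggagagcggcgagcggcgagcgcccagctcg

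These 3 promoters were rich in G and C, with 77.7% in Klf11, 74.3% in Klf4 and 73.3% in Klf15, against a median of 52.7% over all 32851 promoters of the table. None of the 9 Klf promoters held AGGTCA or its reverse complement TGACCT, which 16.3% of all promoters of this length held. The longer form TAGGTCA, which contains it, was in 2.61% of all promoters and likewise in none of the 9. CACCC or its reverse complement GGGTG was in 6 of the 9, against 57.5% of all promoters. The palindrome CACGTG was in 4 of the 9 (Klf4, Klf6, Klf11 and Klf15), against 7.15% of all promoters; this sequence was added to the search after the promoters had been read. Klf15 held it at 3 places, starting 228, 172 and 3 bases before the start, while Klf11 held it at -214 and Klf4 at -182. The 9 Klf promoters held 58.3% to 77.7% G and C, and the shares of all promoters were not matched for this. The motif counts therefore show neither an excess nor a lack. A match is a description of the letters and not a binding site. The peaks are on build mm9 and these sequences on GRCm38.p6; whether both place the start of Klf11 at the same base was not checked. The sequence under the peaks was not used here.

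Rev-Erbα signal at the Klf sites of the 4 °C list was higher at 4 °C than at 29 °C by about the factor seen over the whole list. The unit of the values is FPKM, here the reads in a peak window of 200 bp per kb of window and per M reads of the pool. It is not a level of gene expression. The median over the 41 sites was 7.07 FPKM in the HA-RevErbα 4 °C pool and 2.07 in the HA-RevErbα 29 °C pool, against 1.12 and 1.01 in the WT 4 °C and 29 °C pools. Over all 11227 windows the medians were 7.07 and 2.39 FPKM in the HA-RevErbα pools, against 1.12 and 1.21 in WT. The ratio of 4 °C to 29 °C had a median of 3.13 at the Klf sites and 3.05 over all windows. It was at least 2 at 37 of 41 Klf sites (90.2%), against 83.4% of all windows, and at least 4 at 10 (24.4%), against 27.4%. Its exact 95% Clopper-Pearson interval, which covers counting error only, lay above 1 at 40 of 41 sites (97.6%), against 95.4% of all windows. With the pools scaled to equal WT reads over shared windows, or over the 29 °C list, the count at a ratio of at least 2 was 25 or 19 (55.5% or 39.8% of all windows) and the Klf median 2.18 or 1.84. These windows were listed for their 4 °C signal, which favours ratios above 1, and the shares stood near those of the whole list. In a tissue pull-down, more signal per cell and more cells with a bound site cannot be told apart.

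**Figure D1:**
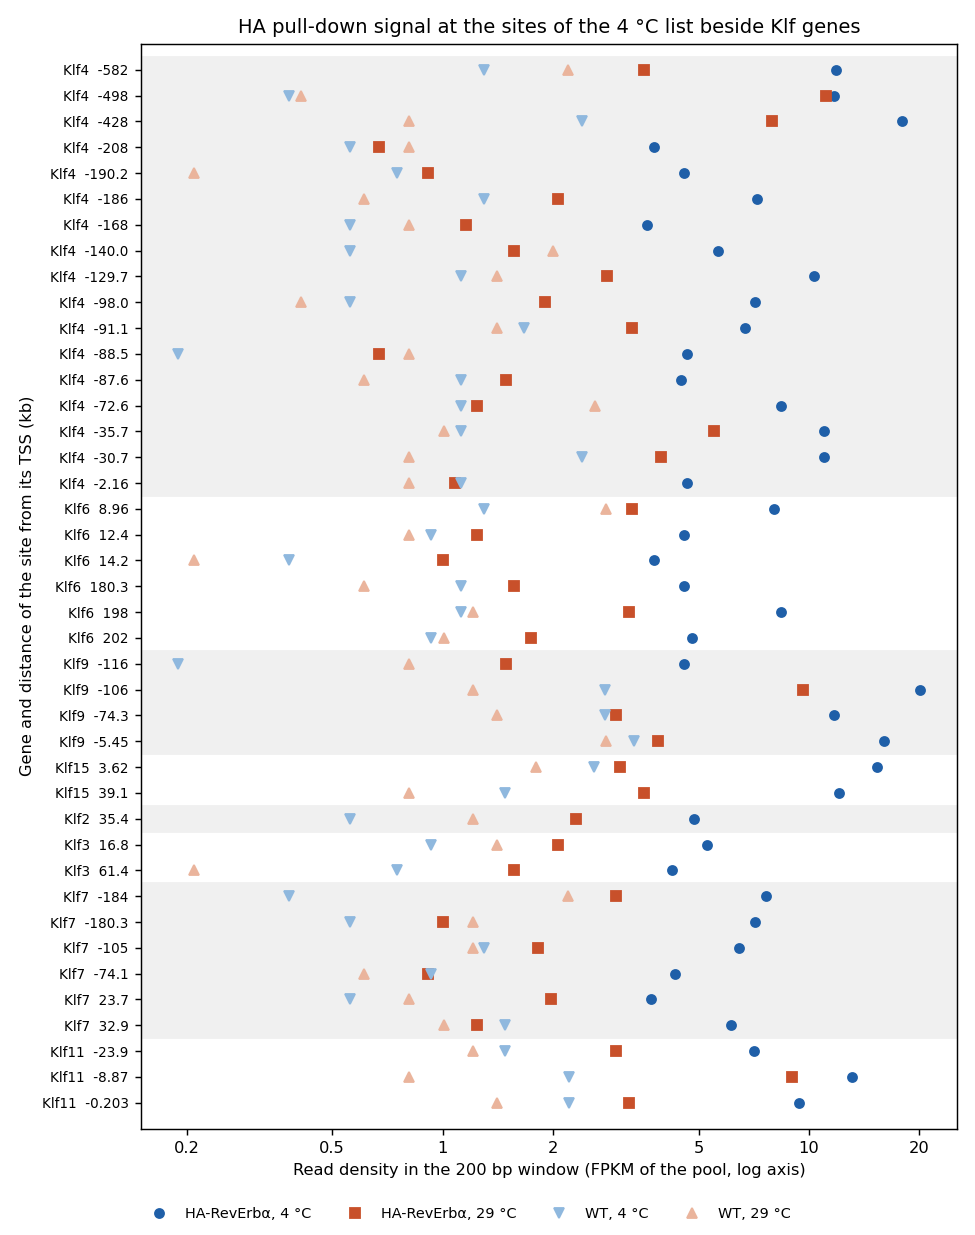
Read density (FPKM of the pool, log axis) at each of the 41 sites of the 4 °C list beside Klf genes, labelled by gene and distance from the TSS in kb; points are the 4 pools, with no error since each pool is a single value. The HA-RevErbα 4 °C points lie between 3.62 and 20.16 FPKM and the HA-RevErbα 29 °C points between 0.67 and 11.11, while the WT points stay at or below 3.33.

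At 29 °C most of these sites could not be told from the WT background. The HA-RevErbα 29 °C density exceeded that of WT 29 °C beyond counting error at 14 of 41 Klf sites (34.1%), against 41.5% of all windows of the list. At 5 sites (12.2%), 4 beside Klf4 and 1 beside Klf7, it was below the WT value, within counting error. Over the whole list, 1546 of 11227 windows were at or below WT at 29 °C. A peak of the 29 °C list overlapped 6 of the 41 sites by at least 1 bp (14.6%), against 14.9% of all 4 °C sites. They were 4 sites of Klf4, 1 of Klf9 and 1 of Klf11. Within the shorter list these were 6 of the 8 Klf sites (75.0%), against 76.5% of all 29 °C sites. The lists hold peaks with at least 3 FPKM more than WT and about 4 times WT. At 29 °C none of the 35 Klf sites listed at 4 °C only reached both limits, against 1.0% of all such windows. These windows were chosen for having no 29 °C peak, so this follows in part from the choice.

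Most Klf sites lay outside genes and away from promoters. The authors' annotation placed 34 of the 41 sites (82.9%) in intergenic sequence, against 44.3% of the 4 °C list. It placed 5 in introns (12.2%, against 47.8%), 1 in a promoter (2.44%, against 3.82%) and 1 at a transcript end. The median distance from the TSS was 87.6 kb at the Klf sites and 27.5 kb over the whole list. Within 10 kb of the TSS lay 6 Klf sites (14.6%, against 26.1%), and beyond 100 kb lay 17 (41.5%, against 16.5%). Klf4 weighs on these shares: among the 24 sites of the other genes, 70.8% were intergenic and 33.3% lay beyond 100 kb. No test was made of these differences, since sites of a gene share their surroundings.

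**Figure D2:**
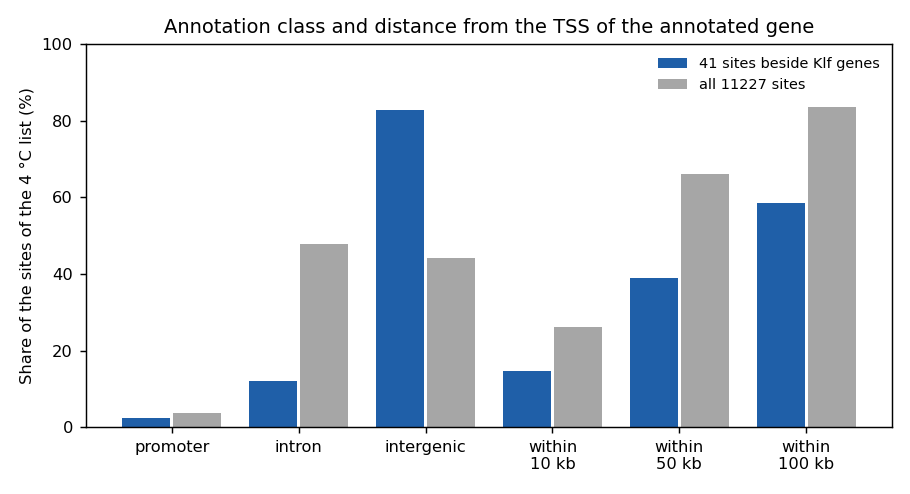
Share of sites (%) by annotation class and by distance from the TSS of the annotated gene, for the 41 Klf sites and for all 11227 sites of the 4 °C list. Intergenic sites make up 82.9% of the Klf sites and 44.3% of the whole list, and sites within 50 kb make up 39.0% and 66.2%.

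Klf4, an early activator of adipogenesis and a pluripotency factor, was the annotated gene of 17 sites in the 4 °C list and of 4 in the 29 °C list. All 17 were intergenic and upstream of the gene, over a span of 579.6 kb on chromosome 4. In the gene order of GRCm38 they lie on the side of Actl7b, the next protein-coding gene. No 4 °C peak of another gene fell among them, which follows from annotating each peak to the gene with the nearest start. Only Zfp608, with 21 sites, had more; Col4a2 and Plpp3 also had 17 and Celf2 had 16, while 54.6% of the 5451 genes in the list had 1. The median ratio of 4 °C to 29 °C was 3.51 over the sites of Klf4, against 2.41 for Zfp608, 3.18 for Col4a2, 2.82 for Plpp3 and 2.69 for Celf2. Zfp608 and Plpp3 sites were mostly intergenic too (17 of 21 and 14 of 17), whereas 3 of 17 were at Col4a2 and none of 16 at Celf2.

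The 3 farthest Klf4 sites had the 3 highest 4 °C densities of the gene. The highest-scoring site of the gene lay at -428 kb (chromosome 4, 55973000 to 55973200) with a peak score of 35.9 (the authors' own value, in reads per window and 10 M pool reads). It had 17.97 FPKM in the HA-RevErbα 4 °C pool and 7.91 in the HA-RevErbα 29 °C pool, against 2.41 and 0.81 in WT, a ratio of 2.27 (interval 1.78 to 2.92). At -498 kb (56043505 to 56043705) there were 11.69 and 11.11 FPKM, against 0.38 and 0.41 in WT. This was the Klf site with the smallest ratio, 1.05 (0.828 to 1.34), and the only one of the 41 whose interval included 1. At -582 kb (56126807 to 56127007) there were 11.85 and 3.55 FPKM, against 1.30 and 2.20, so the 29 °C density there was within counting error of WT. The first of these sites and the site at -498 kb were in both lists, that at -582 kb at 4 °C only.

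Nearer to the gene, an upstream pair was also in both lists. The site at -35.7 kb (55580920 to 55581120) had 10.99 FPKM in the cold and 5.52 at 29 °C, against 1.12 and 1.01 in WT (ratio 1.99, 1.48 to 2.71). The site at -30.7 kb (55575976 to 55576176) had 10.99 and 3.96 FPKM, against 2.41 and 0.81 (ratio 2.78, 1.99 to 3.95). Both exceeded WT at 29 °C beyond counting error. The site nearest to the TSS, at -2.16 kb (55547411 to 55547611), was weak, with 4.64 FPKM in the cold and 1.08 at 29 °C, against 1.12 and 0.81 in WT. Its ratio of 4.33 (2.35 to 8.60) rests on a 29 °C density within counting error of WT.

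The other 11 Klf4 sites lay between -72.6 and -208 kb and all were listed at 4 °C only. They had 3.62 to 10.36 FPKM in the HA-RevErbα 4 °C pool and 0.67 to 3.30 in the HA-RevErbα 29 °C pool, in windows listed for their 4 °C signal. Their ratios ran from 2.03 to 7.03, while those of the 3 farthest sites were 1.05, 2.27 and 3.35. None of the 11 was in both lists, which follows in part from the grouping, since the near pair in both lists was described apart. Of all 14 Klf4 sites within 250 kb of the TSS, 2 were in both lists, and of the 3 beyond it, 2 were. The strongest of the 11, at -129.7 kb (55674952 to 55675152), had 10.36 and 2.81 FPKM, against 1.12 and 1.41 in WT. At -72.6 kb (55617888 to 55618088) there were 8.40 and 1.24 FPKM, against 1.12 and 2.60 in WT. The 29 °C value was below that of WT, and the ratio of 6.80 (3.94 to 12.6) therefore rests on a density at background.

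A group of 4 sites lay between -87.6 and -98.0 kb, the closest of them 0.863 kb apart. The site at -98.0 kb (55643231 to 55643431) had 7.15 FPKM in the cold and 1.90 at 29 °C, against 0.56 and 0.41 in WT. At -91.1 kb (55636347 to 55636547) the densities were 6.68 and 3.30 FPKM, against 1.67 and 1.41. These sites kept a 29 °C density above WT beyond counting error. The pair at -88.5 kb (55633701 to 55633901) and -87.6 kb (55632838 to 55633038) did not: it had 4.64 and 4.48 FPKM at 4 °C, 0.67 and 1.49 at 29 °C, 0.19 and 1.12 in the WT 4 °C pool, and 0.81 and 0.61 in the WT 29 °C pool. The site at -88.5 kb had the largest ratio of the gene, 7.03 (3.35 to 17.0), resting on 8 reads at 29 °C.

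Another 5 Klf4 sites lay from -140.0 to -208 kb. The site at -186 kb (55731321 to 55731521) had 7.22 FPKM in the cold, the highest of the 5, and 2.07 at 29 °C, against 1.30 and 0.61 in WT, and was the only one of the 5 above WT at 29 °C beyond counting error. The site at -140.0 kb (55685211 to 55685411) had 5.66 and 1.57 FPKM, against 0.56 and 2.0. At -168 kb (55713373 to 55713573) there were 3.62 and 1.16 FPKM, against 0.56 and 0.81, the lowest 4 °C density of all Klf sites. Both had ratios close to the median of the list, 3.61 and 3.13. The site at -190.2 kb (55735430 to 55735630) had 4.56 and 0.91 FPKM, against 0.75 and 0.21, and that at -208 kb (55753085 to 55753285) had 3.77 and 0.67, against 0.56 and 0.81. Their ratios of 5.03 (2.61 to 10.6) and 5.72 (2.68 to 14.0) came from 11 and 8 reads at 29 °C.

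**Figure D3:**
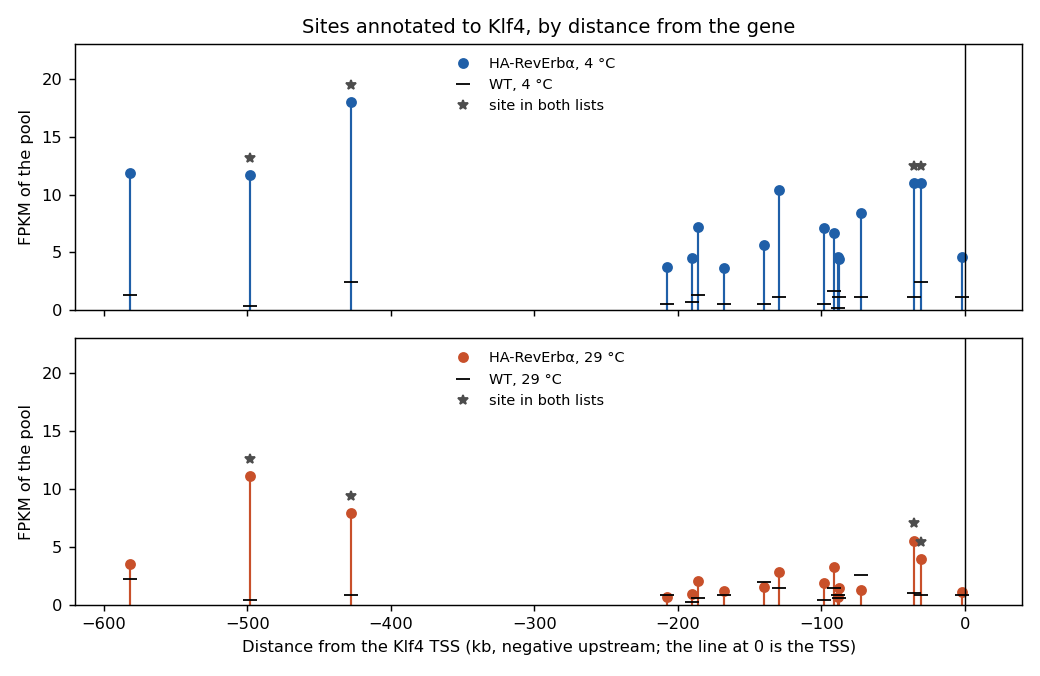
Density (FPKM of the pool) at the 17 Klf4 sites against their distance from the TSS in kb, in the HA-RevErbα pool (points) and the WT pool (dashes) at 4 °C (top) and 29 °C (bottom); stars mark sites in both lists. The sites at -498, -428, -35.7 and -30.7 kb keep 3.96 to 11.11 FPKM at 29 °C, whereas the 11 sites from -72.6 to -208 kb have at most 3.30.

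Klf9, a glucocorticoid-induced gene whose product promotes Pparg expression, had the highest-scoring Klf site. It had 4 sites at 4 °C, all intergenic and upstream of the TSS on chromosome 19, on the side of Trpm3 in the gene order, and 1 at 29 °C. The site at -106 kb (23109488 to 23109688), with a score of 40.3, had 20.16 FPKM in the HA-RevErbα 4 °C pool and 9.63 in the HA-RevErbα 29 °C pool, against 2.77 and 1.21 in WT. It was in both lists, and its ratio of 2.09 (1.68 to 2.63) was the smallest of the gene. At -5.45 kb (23210162 to 23210362) there were 16.09 and 3.88 FPKM, against 3.33 and 2.80 in WT (ratio 4.16, 3.02 to 5.84). At -74.3 kb (23141326 to 23141526) the pools had 11.69 and 2.97 FPKM, against 2.77 and 1.41 (ratio 3.95, 2.73 to 5.85). Both sites were strong at 4 °C and within counting error of WT at 29 °C. The site at -116 kb (23099833 to 23100033) was weak, with 4.56 and 1.49 FPKM, against 0.19 and 0.81.

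Klf15, whose product activates the glucose transporter gene Slc2a4 in fat cells and whose expression follows the clock in several tissues, had 2 sites at 4 °C and a different site at 29 °C, all on chromosome 6. The site in intron 1 at 3.62 kb (90416139 to 90416339) had 15.38 FPKM in the HA-RevErbα 4 °C pool and 3.05 in the HA-RevErbα 29 °C pool, against 2.59 and 1.80 in WT. Its ratio was 5.05 (3.54 to 7.39) and rests on a 29 °C density within counting error of WT. The intergenic site at 39.1 kb (90451621 to 90451821) had 12.09 and 3.55 FPKM, against 1.48 and 0.81 (ratio 3.41, 2.42 to 4.91). The site of the 29 °C list also lay in intron 1, at 1.08 kb (90413596 to 90413796), 2543 bp from the nearest peak of the 4 °C list. It had more signal at 4 °C, with 12.79 FPKM, than at 29 °C, with 4.78, against 2.96 and 0.61 in WT.

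Klf6 had 6 sites at 4 °C and 1 at 29 °C on chromosome 13, in a group close to the gene's end and a group far beyond it. The site annotated at the transcript end, at 8.96 kb (5869591 to 5869791), had 8.01 FPKM in the cold and 3.30 at 29 °C, against 1.30 and 2.80 in WT. Next to it, the sites at 12.4 kb (5873044 to 5873244) and 14.2 kb (5874820 to 5875020) had 4.56 and 3.77 FPKM in the cold and 1.24 and 1.0 at 29 °C. The WT pools had 0.93 and 0.38 FPKM there at 4 °C and 0.81 and 0.21 at 29 °C. None of these 3 exceeded WT at 29 °C beyond counting error. The far group lay past a gap of 166 kb, on the side of Pitrm1 in the gene order. Its strongest site, at 198 kb (6058945 to 6059145), had 8.40 and 3.22 FPKM, against 1.12 and 1.21. The sites at 180.3 kb (6040952 to 6041152) and 202 kb (6062323 to 6062523) had 4.56 and 4.79 FPKM in the cold and 1.57 and 1.74 at 29 °C, while WT had 1.12 and 0.93 FPKM at 4 °C and 0.61 and 1.01 at 29 °C.

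The 29 °C site of Klf6, at 181 kb (6041855 to 6042055), lay 903 bp from the 4 °C site at 180.3 kb without overlapping it. It had 11.38 FPKM in the cold and 5.19 at 29 °C, against 2.77 and 1.21 in WT. Although listed at 29 °C only, it had the highest 4 °C density of all Klf6 windows. The ratios of the 6 sites of the 4 °C list ran from 2.43 (1.67 to 3.6) at the transcript end to 3.81 (2.0 to 7.89) at 14.2 kb, with all 6 intervals overlapping.

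The genes of KLFs that hold back fat cell formation, Klf2, Klf3 and Klf7, had 9 sites at 4 °C, with scores of at most 15.2, and none in the 29 °C list. An overlap of 0 of 9 stands beside 14.9% of all 4 °C sites. It was not particular to these genes, since none of the 6 sites of Klf6 and the 2 of Klf15 overlapped a 29 °C peak either. The site of Klf2 lies inside another gene. Klf7 had 6 sites on chromosome 1, 4 intergenic and upstream and 2 in its intron 1. The strongest, at -184 kb (64352287 to 64352487), had 7.62 FPKM in the HA-RevErbα 4 °C pool and 2.97 in the HA-RevErbα 29 °C pool, against 0.38 and 2.20 in WT. Nearby, at -180.3 kb (64348148 to 64348348), there were 7.15 and 1.0 FPKM, against 0.56 and 1.21. This site had the largest ratio of all 41, 7.23 (3.94 to 14.5), with a 29 °C value below WT. The site at -105 kb (64272722 to 64272922) had 6.44 and 1.82 FPKM, against 1.30 and 1.21, and that at -74.1 kb (64241961 to 64242161) had 4.32 and 0.91, against 0.93 and 0.61. In intron 1 the site at 32.9 kb (64134923 to 64135123) had 6.13 and 1.24 FPKM, against 1.48 and 1.01 (ratio 4.96, 2.83 to 9.28). The other intronic site, at 23.7 kb (64144128 to 64144328), had 3.70 and 1.98 FPKM, against 0.56 and 0.81 (ratio 1.87, 1.12 to 3.19). No Klf7 site exceeded WT at 29 °C beyond counting error.

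Klf3, whose product represses through CtBP corepressors, had a site in intron 2 at 16.8 kb (chromosome 5, 65211435 to 65211635) with 5.26 FPKM in the cold and 2.07 at 29 °C, against 0.93 and 1.41 in WT. Its intergenic site at 61.4 kb (65256059 to 65256259) had 4.24 and 1.57 FPKM, against 0.75 and 0.21, the last value being a single read. Their ratios were 2.56 (1.59 to 4.22) and 2.71 (1.58 to 4.84). Klf2, a repressor of Pparg that is also known from endothelium, had 1 site, at 35.4 kb (chromosome 8, 74878229 to 74878429). That site lies in intron 22 of another gene, Eps15l1, by the transcript named in the annotation, and Klf2 is only the gene with the nearest start. It had 4.87 and 2.31 FPKM, against 0.56 and 1.21 in WT (ratio 2.11, 1.33 to 3.43). The 29 °C values at Klf2 and at the intron 2 site of Klf3 were within counting error of WT.

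Klf11, a TGF-β-inducible gene whose product is a repressor, had 3 sites on chromosome 12, all within 24 kb of the TSS. The promoter site at -0.203 kb (25335933 to 25336133) had 9.42 FPKM in the HA-RevErbα 4 °C pool and 3.22 in the HA-RevErbα 29 °C pool, against 2.22 and 1.41 in WT. Its ratio was 2.93 (2.03 to 4.33). At -8.87 kb (25327269 to 25327469) there were 13.11 and 8.97 FPKM, against 2.22 and 0.81. This site was in both lists, with a score of 26.2 at 4 °C and 17.9 at 29 °C, and its ratio of 1.46 (1.14 to 1.88) was the second smallest of the 41. With the pools scaled to equal WT reads over the 29 °C list this ratio turned to 0.856. At -23.9 kb (25312213 to 25312413) there were 7.07 and 2.97 FPKM, against 1.48 and 1.21 (ratio 2.38, 1.6 to 3.61). Klf11 was the only Klf gene with more than 1 site at which every site exceeded WT at 29 °C beyond counting error. At -0.203 and -23.9 kb this was by a narrow margin. The intervals of HA-RevErbα over WT at 29 °C were 1.02 to 6.09 and 1.03 to 7.19, and neither site was in the 29 °C list. The ratios of the 3 sites ran from 1.46 to 2.93, with a median of 2.38. Among the other genes the median ratio over sites was 2.11 for Klf2 (1 site), 2.63 for Klf3, 2.84 for Klf6, 3.51 for Klf4 and Klf9, 4.16 for Klf7 and 4.23 for Klf15. The sites of Klf4 alone ran from 1.05 to 7.03, so the genes were not ranked.

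**Figure D4:**
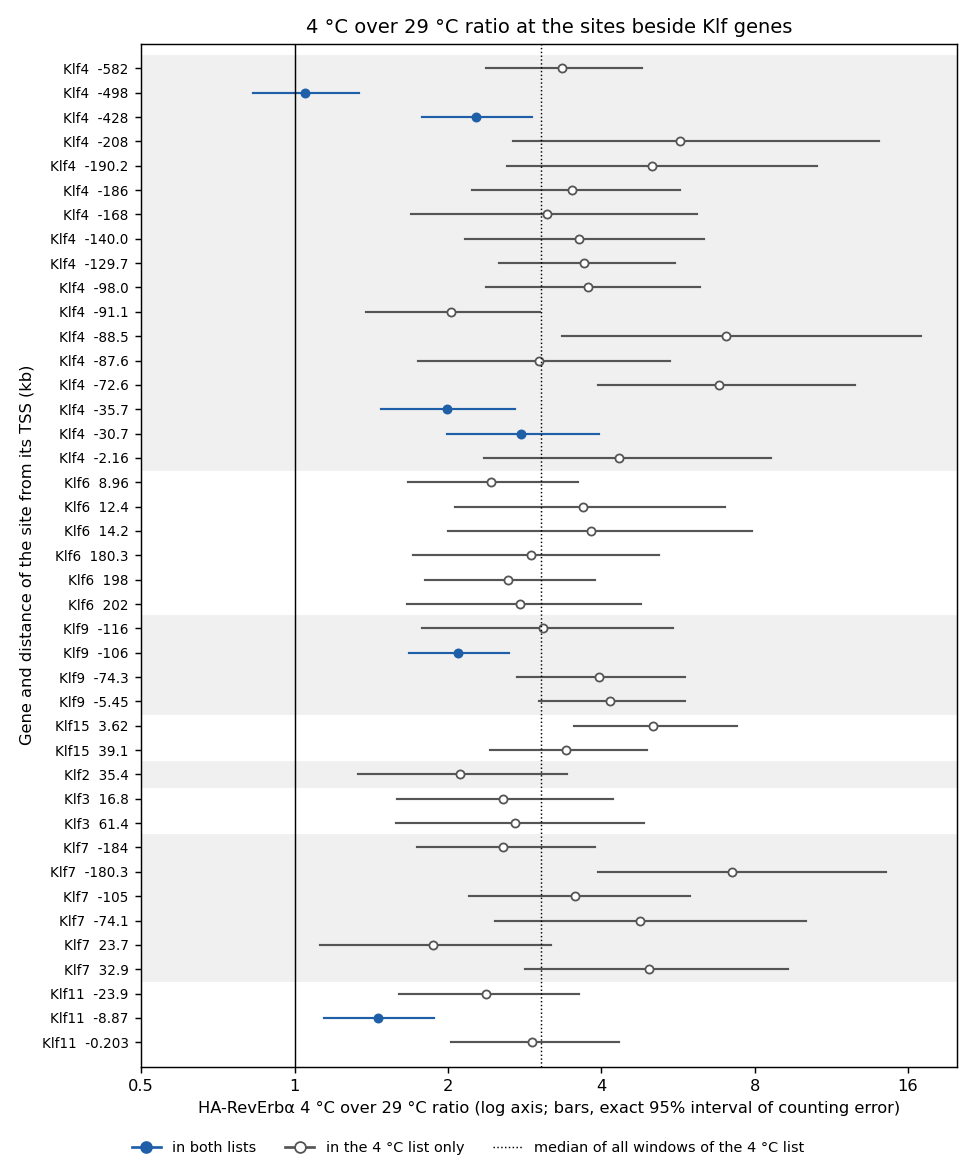
Ratio of 4 °C to 29 °C HA-RevErbα density (log axis) at each of the 41 Klf sites, with exact 95% intervals of counting error; filled points are the 6 sites in both lists and the dotted line is the median of all windows of the 4 °C list, 3.05. The ratios run from 1.05 to 7.23, and those of the 6 sites in both lists run from 1.05 to 2.78.

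Sites in both lists had higher densities and smaller ratios than the sites at 4 °C only, as in the whole list. The 6 shared Klf sites had medians of 12.40 FPKM in the cold and 8.44 at 29 °C and a median ratio of 2.04, while the 35 sites at 4 °C only had medians of 6.13 and 1.82 FPKM and a ratio of 3.51. Over the whole list the median ratio was 1.88 at shared sites and 3.28 at sites listed at 4 °C only. Membership of the 29 °C list depends on the 29 °C value, so this order follows in part from the choice of sites. The 8 Klf windows of the 29 °C list, 4 of them beside Klf4, were chosen for 29 °C signal. The ratio was above 1 at 7 of them (87.5%), against 81.8% of all windows of that list. Each of the 7 had an interval above 1 (87.5%, against 66.8%). The ratio ran from 0.960 (0.754 to 1.22) at Klf4 -498 kb to 2.88 (2.06 to 4.1) at Klf4 -30.7 kb, with a median of 2.12, against 1.64 over the list.

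Among other genes of the SP and KLF family, 5 of 16 had a site at 4 °C and 1 had a site at 29 °C. No share of all genes with a site was computed to set beside this count. Sp3, an SP factor expressed in most tissues, had 7 sites, Klf10 had 5, and Sp1, Sp5 and Sp7 had 1 each. Their 15 sites had a median ratio of 3.05, as over all windows. A ratio of at least 2 was seen at 13 of the 15, where 83.4% of all windows had one. The highest-scoring site of Klf10, a TGF-β-inducible relative of Klf11, lay at -84.2 kb and had 11.46 FPKM in the cold and 3.79 at 29 °C, against 2.22 and 1.01 in WT. That of Sp3, in both lists, lay at -67.2 kb with 11.30 and 3.71 FPKM, against 0.75 and 0.81. The highest value of the list was at a site annotated to Sp5 at -141 kb, which lies in intron 30 of another gene, Myo3b, with 16.16 and 4.37 FPKM, against 2.96 and 1.41. The site of Sp1 had 7.38 and 1.82 FPKM, against 1.48 and 1.21. Klf1, Klf8, Klf12, Klf14, Klf16, Klf17 and the other SP genes had none.

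Among genes of corepressors that KLF proteins recruit, 2 of 6 had a site at 4 °C, again without a share of all genes to set beside it. Of Ctbp1, Ctbp2, Sin3a, Sin3b, Hdac1 and Hdac2, the histone deacetylase gene Hdac2 had 2 sites and Ctbp2 had 1. Hdac2 had 12.48 FPKM in the cold and 6.51 at 29 °C at 73.4 kb, against 1.12 and 1.6 in WT, a site in both lists (ratio 1.92, 1.46 to 2.55). Ctbp2 had 4.48 and 1.65 FPKM at -12.0 kb, against 0.93 and 1.6. The ratios of the 3 sites ran from 1.92 to 8.26, the largest being that of the other Hdac2 site.

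Fat cell transcription factor genes that act with or downstream of KLF proteins had a site at 4 °C in 8 of 11 cases, and only Rxra had one at 29 °C. Without the share of all genes with a site, 8 of 11 cannot be called many or few. The 19 sites of these genes had a median ratio of 3.59, against 3.05 over all windows. A ratio of at least 2 was seen at 18 of the 19, where 83.4% of all windows had one. The exception was a site of Rxra at -79.1 kb, in both lists, with 6.28 FPKM in the cold and 7.0 at 29 °C, against 0.38 and 1.21 in WT (ratio 0.897, 0.653 to 1.23). Pparg, the master regulator of fat cells, had 17.26 FPKM in the cold and 3.30 at 29 °C in an intron, 2.56 kb from the TSS, against 2.96 and 2.0 in WT (ratio 5.24, 3.73 to 7.54). Ebf1 had 16.09 and 5.36 FPKM at 40.1 kb, against 1.85 and 2.60. Cebpb, the target of KLF4, had 13.50 and 2.07 FPKM at -1.12 kb, against 2.41 and 1.6 (ratio 6.56, 4.30 to 10.4). At these sites of Pparg and Cebpb the 29 °C density was within counting error of WT. The other Rxra site had 13.34 and 5.03 FPKM at -78.0 kb, against 1.67 and 0.21. Cebpa, Cebpd, Gata2 and Srebf1 also had sites, while Ebf2, Prdm16 and Gata3 had none. By the transcripts named in the annotation, the only site of Cebpd lies in intron 10 of another gene, Spidr. The only site of Srebf1 likewise lies in intron 12 of Tom1l2.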

How the data were processed

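Anti-HA ChIP-seq was done on brown adipose tissue of HA-RevErba and WT mice at 4 and 29 °C, and groups were taken from the sample titles. The submitters' processing notes name Bowtie2 2.1.0, HOMER 4.10 and mm9 without saying what each did; peak-calling settings and the handling of duplicates were not stated there. Per the file headers, each of the 2 peak lists was made on pooled libraries and annotated to the gene with the nearest start. The deposited FPKM are read densities in windows of 200 bp, with 0.01 added by the authors. The deposited peak score is the authors' own. The deposited difference columns (other unit) equal HA-RevErbα minus WT FPKM.

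All values, less 0.01, were whole multiples of a step per pool (100% within 0.01 FPKM), which gave the reads per window. In the HA-RevErbα pools 3 reads make 0.235 FPKM in the cold and 0.247 at 29 °C, and in WT 0.553 and 0.598. Ratios with exact 95% Clopper-Pearson intervals were computed from reads and pool sizes (Python 3.11.15, scipy 1.17.1). Both cover counting error alone: PCR copies carry no molecular identifiers here and may repeat a molecule. "Beyond counting error" means that the interval lay above 1. The calculation was tested on simulated reads. No p-value was computed.

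The genes and the other lists were chosen with earlier results of these data known. All 10 Klf genes are named with every site; beside Klf4, genes with the same or the next number of sites; and of the other lists, members with a site, with values for at most 4. Promoters and gene order are from RefSeq, GRCm38.p6, used for no peak position. Coordinates are printed as deposited; whether starts count from 0 or 1 was not stated. Alternatives tried were pool scaling on WT reads, WT subtraction, a pseudocount of 1 FPKM, a low-value filter, limits on distance, a stricter peak threshold and other overlap rules.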

Additional observations from a re-analysis of the deposited data

How the results depend on the processing

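All values rest on 1 pool per group, so leaving out a library was not possible. No paired analysis was possible because the pooled columns carry no replicate numbers. Scaling the pools to equal WT reads divided every ratio by 1.02 (windows of the 4 °C list), 1.44 (shared windows; 0.53 on the log2 scale) or 1.71 (windows of the 29 °C list). Windows of each list were chosen in part on low WT values at its own temperature; how far this moves each factor was not tested. Ratios then stayed above 1 at 41, 40 and 39 of 41 Klf sites. The site of Klf4 at -498 kb turned to 0.731 and 0.617 under the last 2 factors, and that of Klf11 at -8.87 kb to 0.856 under the last. The median ratio ran from 1.84 (factor 1.71) to 5.44 (WT subtracted; 5 sites at or below WT at 29 °C have no ratio there and were ranked highest, and the other 36 have a median of 4.36) and stayed above 1 under every alternative run, beside 1.79 and 4.96 over all windows. The 37 sites with a ratio of at least 2 became 19 under the factor of 1.71, when 39.8% of all windows passed, and 25 under 1.44. By construction fewer sites remain under limits: 18 with at least 2 FPKM at 29 °C, 13 within 50 kb, 5 within 10 kb, 11 at the stricter threshold (6 FPKM more than WT and 6 times WT), and 22 without Klf4, a setting added after seeing the data. Sites in the 4 °C list fell to 13 at the stricter threshold and 16 within 50 kb, and genes to 5 at the stricter threshold and 5 within 10 kb. Sites in the 29 °C list became 4 under both limits, and genes 3, 3 and, within 10 kb, 2. Sites in both lists became 3 at the stricter threshold and 2 without Klf4, and stayed 6 with an overlap of 100 bp or centres within 500 bp. Of 41 site ratios, adding 1 FPKM or the factor of 1.02 moved none out of its interval; WT subtraction moved 16 of the 36 defined, the factor of 1.44 moved 9 and reversed 1, and that of 1.71 moved 25 and reversed 2. Depth limits the WT values most, with 3 or fewer reads at 12 sites in the WT 4 °C pool and 9 in the WT 29 °C pool.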

Other observations

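Both Klf windows listed at 29 °C only had more HA-RevErbα signal at 4 °C than at 29 °C. At the 29 °C site of Klf15 the ratio of 4 °C to 29 °C was 2.68 (exact 95% interval of counting error, 1.97 to 3.68), and at that of Klf6 it was 2.19 (1.62 to 3.0). In the pools at 4 °C these windows had 4.33 and 4.11 times the WT density and more than 3 FPKM over WT, so both reached there the limits seen in the lists, yet neither was in the 4 °C list. The nearest listed 4 °C peaks lay 2543 and 903 bp away. Why these windows were not listed at 4 °C was not tested. Over the whole 29 °C list, shared windows included, the ratio was above 1 in 81.8% of windows. No share was computed over all windows listed at 29 °C only, so neither point can be called particular to Klf genes.

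The peak of Klf4 at -498 kb had the highest 29 °C density of all Klf windows of the 4 °C list, 11.11 FPKM, and its WT densities were among the lowest, with 2 reads in the WT 4 °C pool and 2 in the WT 29 °C pool. Its interval, 0.828 to 1.34, did not overlap that of the next Klf4 site towards the gene, at -428 kb, 1.78 to 2.92.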
